A study of Mus musculus with 6 samples.

Results

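Endothelial cells of 2 single-cell RNA libraries from wild-type mice, harvested at postnatal day 6 (P6) and postnatal day 10 (P10), were compared. A barcode was kept when it had at least 500 genes and at most 10% of its transcript tags (unique molecular identifiers, UMIs) from mitochondrial genes. A kept cell counted as endothelial when it held a UMI of at least 3 of Pecam1, Cldn5, Cdh5, Flt1, Esam and Egfl7. This gave 1380 of 1481 kept cells at P6 and 3540 of 3608 at P10, 4920 of the 14165 endothelial cells in the series. Near the threshold, 18 cells at P6 and 38 at P10 held 2 of the markers, and 20 and 106 held exactly 3. The 6 genes chose the cells, so their levels are descriptions.

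The series holds 6 libraries of sorted mouse cells, 1 library for each group. It asks what follows in brain endothelium when Pdcd10, whose loss causes cavernous malformations of brain vessels, is deleted after birth. Both wild-type (WT) libraries are from Mfsd2a-CreERT2 mice with no floxed Pdcd10 allele, which received tamoxifen at P1, so Cre was present and induced in the controls too. Mfsd2a, whose locus drives this Cre, encodes a lipid transporter of barrier-forming brain endothelium. The KO libraries, used here only for an age term and side by side, are from Mfsd2a-CreERT2:Pdcd10fl/fl mice with tamoxifen at P1 and harvest at P6 or P10. The labels name no strain, no number of pooled animals and no sort gate, and leave unsaid whether each library had its own animals. Pdcd10 itself measured 103.6 and 102.4 UMIs per 1000000 endothelial UMIs (CPM) in WT at P6 and P10 and 58.4 and 58.2 CPM in KO, so both KO libraries lay under both WT libraries.

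Brain capillaries of the newborn mouse are still growing in the first postnatal days. Endothelial cells divide and sprout under VEGF and Notch signals while Wnt ligands acting on Frizzled receptors switch on the barrier program: sealed tight junctions, few caveolae and a set of transporters that import nutrients and pump out drugs. As the network matures, division slows, arterial, capillary and venous identities separate, and the vessel wall lays down basement membrane.

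The labels give retina as the tissue, whereas the title and design of the series name brain. Of 13 retinal markers, 5 (Rcvrn, Pde6b, Arr3, Opn1sw and Vsx1) were at 0 in both WT endothelial sums, and the list summed to 8.20 CPM at P6 and 6.12 CPM at P10. The brain endothelial genes Foxq1 and Mfsd2a were measured, as given below, and Slc22a8, an organic anion transporter, at 431 and 574 CPM. All these values come from cells chosen as endothelial, so they cannot decide between retina and brain, and the tissue was not tested. Endothelial UMIs summed to 11456857 at P6 and 20739119 at P10, with medians of 6962.5 and 4871 UMIs a cell. Pericyte markers, those of the contractile cells that wrap capillaries, summed to 1174 CPM at P6 and 1123 CPM at P10, with all 12 measured in both libraries. Cells with at least 3 of these markers were less even, at 21.9% of endothelial cells at P6 and 11.9% at P10. With each cell drawn at random down to 2000 UMIs, they were 13.4% and 10.1%. Red cell markers summed to 1913 CPM at P6 and 15650 CPM at P10, and haemoglobin genes took 0.180% and 1.55% of endothelial UMIs. The P6 library held 11057 UMIs of Xist, the X-inactivation RNA, and none of the Y-linked genes Ddx3y, Eif2s3y, Uty and Kdm5d. The P10 library held 3 Xist UMIs and 2988 of those Y-linked genes. In KO, the P6 library held 1 Xist UMI and 2 Y-linked UMIs, and the P10 library 4 and 2763. Both P10 libraries thus carried Y-linked UMIs and neither P6 library did beyond 2, so age and sex-linked expression cannot be told apart, in the WT pair or in the age test described below. The 2 libraries shared 8 barcodes.

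With 1 library a group, no test separates P10 from P6 in WT, and the exact 95% intervals given below reflect counting error alone. A gene was described as higher or lower at P10 when it had at least 20 CPM and 30 UMIs in its higher WT library and differed at least 1.5-fold. Of 5838 genes past that level, 493 were higher at P10 (8.44% of those tested) and 516 were lower (8.84%). The median log2 ratio of P10 over P6 was -0.08. With trimmed-mean (TMM) factors in place of total UMIs, 619 genes were higher and 395 lower, so the split between the directions depends on the scaling. A test of age was possible only with the KO libraries added: edgeR's quasi-likelihood test over 4 libraries, 2 an age, with genotype as a term and 1 residual degree of freedom. It called 677 of 13165 genes as risen (5.14%) and 425 as fallen (3.23%) at an adjusted p of 0.05. The counts given below for each gene list are to be read against these shares over all genes, and against those of the WT pair. Below, "rose" and "fell" are used only of genes past that test, whose log2 change averages WT and KO. With 1 library for each age and genotype, the residual of a gene is how far its WT and KO changes differ. No library is repeated, so neither the p-values nor the standard errors (SE) given below measure a spread among animals. Each SE was derived from the test, as the size of the log2 change over the square root of its F value. A gene can fail to pass because WT and KO differ, and that difference may be technical. Without the genotype term the test called 2 genes as risen and 1 as fallen, against 1071 and 616 at a p below 0.05 before adjustment. On 3 libraries, again lacking the genotype term, it called 97 and 41 genes when KO at P10 was left out and 11 and 3 when WT at P10 was. Leaving out KO at P6 gave 0 and 1 by edgeR, with 647 and 286 under that threshold before adjustment, and leaving out WT at P6 gave 0 and 0, with 624 and 356. Of the WT genes called higher, 347 rose, and of those called lower, 223 fell. None moved the opposite way. The age test includes the same 2 WT libraries, so this overlap is fixed in part.

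**Figure D1:**
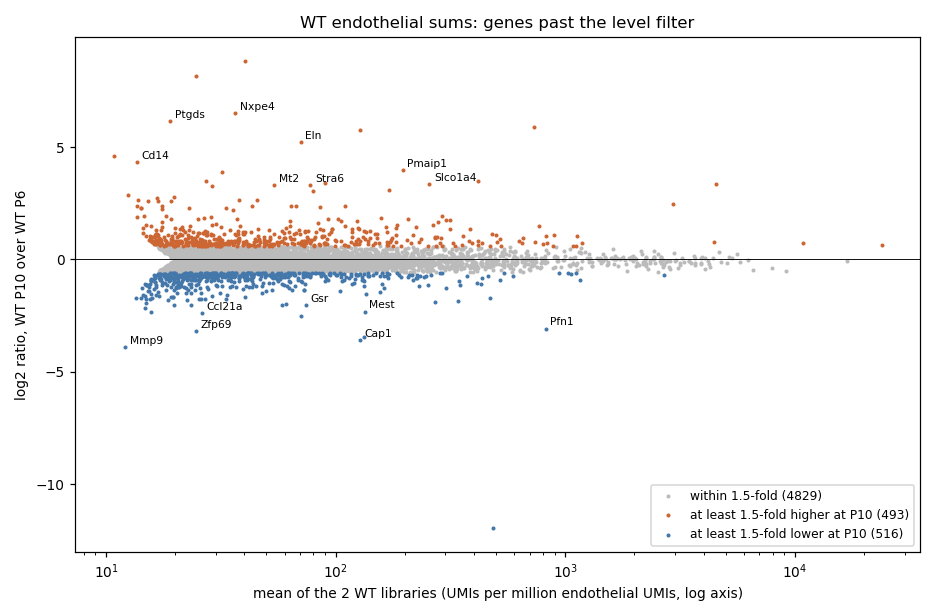
Each point is 1 of 5838 genes, with the mean of the 2 WT endothelial sums on a log axis in CPM and the log2 ratio of P10 over P6 on the vertical axis. Orange points are the 493 genes at least 1.5-fold higher at P10 and blue points the 516 lower ones. The lowest point is Xist, at -11.97, and unlabelled points high up include the Y-linked Ddx3y and Eif2s3y.

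The lists of cell division genes had the lowest medians of the gene lists in the WT pair. Of 26 genes of G2 and mitosis, 16 passed the level filter and 15 of these were lower at P10 against 8.84% of all genes, with a list median of -1.40. The other 10 members were under 20 CPM in both libraries. In the age test 6 of 26 fell, Top2a, Cdk1, Cenpe, Aurka, Aurkb and Bub1b, and none rose. Of 22 genes of DNA replication and S phase, 14 passed the filter, 12 were lower and none higher, with a median of -1.12. In the age test 15 of 22 S phase genes fell, among them all 6 subunits of the MCM helicase. In the KO pair the members past the WT filter had medians of -0.36 for G2 and mitosis and -0.64 for S phase.

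The promoters of these genes are shown because the genes were lower together. The 250 bases before the start, from RefSeq on GRCm38.p6, were searched on both strands for letters that textbook accounts link to cell cycle genes. These were the CCAAT box (CCAAT), the cell cycle homology region (TTTGAA or TTTAAA) and an E2F core (TTCCCGC or TTCGCGC, and likewise TTGCCGC or TTGGCGC). Promoters matched for 22 of 26 G2 and mitosis genes, 18 of 22 S phase genes and 4678 of the 5838 genes past the filter. A CCAAT box was present in 81.8% of the G2 and mitosis promoters, 55.6% of the S phase promoters, 36.9% of those of genes past the filter and 34.5% of all 27025 promoters. The cell cycle homology region was present in 54.5%, 22.2%, 16.7% and 25.5%, in the same order. An E2F core was present in 22.7%, 44.4%, 15.5% and 7.97%. These shares describe letters, not bound sites.

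Capitals in the following 3 promoters, those of cyclins B1 and B2 and of their kinase Cdk1, mark each CCAAT box and cell cycle homology region on either strand. They lie at chr13:100786487-100786736, chr9:70421555-70421804 and chr10:69352913-69353162, all on the minus strand. All 3 hold both kinds of match, as did 11 of the 22 G2 and mitosis promoters and 6.14% of those of genes past the filter. In Ccnb2 the TTTGAA lies 167 to 162 bases before the start, further out than its CCAAT boxes. In Ccnb1 the TTTAAA lies 42 to 37 bases before it, nearer than its CCAAT boxes.
Ccnb1: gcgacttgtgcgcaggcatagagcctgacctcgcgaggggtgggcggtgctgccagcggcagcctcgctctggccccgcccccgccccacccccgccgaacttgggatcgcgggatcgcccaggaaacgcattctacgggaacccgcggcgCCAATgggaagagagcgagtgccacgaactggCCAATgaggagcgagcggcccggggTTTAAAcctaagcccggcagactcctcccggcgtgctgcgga
Ccnb2: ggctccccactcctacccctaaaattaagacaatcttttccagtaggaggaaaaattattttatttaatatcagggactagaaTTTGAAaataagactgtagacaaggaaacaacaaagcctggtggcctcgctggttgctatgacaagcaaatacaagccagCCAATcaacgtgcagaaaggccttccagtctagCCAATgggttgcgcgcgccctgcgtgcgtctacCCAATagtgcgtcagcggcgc
Cdk1: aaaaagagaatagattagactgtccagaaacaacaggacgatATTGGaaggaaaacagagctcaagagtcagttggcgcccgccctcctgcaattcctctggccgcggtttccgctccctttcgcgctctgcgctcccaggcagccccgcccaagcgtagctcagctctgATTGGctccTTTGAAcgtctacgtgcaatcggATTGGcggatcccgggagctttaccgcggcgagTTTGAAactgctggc

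Capitals in the next 2 promoters, those of the MCM helicase subunits Mcm5 and Mcm6, mark E2F cores, some of which overlap each other. They lie at chr8:75109259-75109508 on the plus strand and chr1:128359706-128359955 on the minus strand. Both were picked from the S phase list because they hold more than 1 match.
Mcm5: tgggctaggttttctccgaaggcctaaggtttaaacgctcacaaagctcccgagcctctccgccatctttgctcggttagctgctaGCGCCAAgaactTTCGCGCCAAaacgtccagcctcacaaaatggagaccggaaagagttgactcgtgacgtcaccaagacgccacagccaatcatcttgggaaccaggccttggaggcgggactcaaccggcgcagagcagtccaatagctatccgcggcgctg
Mcm6: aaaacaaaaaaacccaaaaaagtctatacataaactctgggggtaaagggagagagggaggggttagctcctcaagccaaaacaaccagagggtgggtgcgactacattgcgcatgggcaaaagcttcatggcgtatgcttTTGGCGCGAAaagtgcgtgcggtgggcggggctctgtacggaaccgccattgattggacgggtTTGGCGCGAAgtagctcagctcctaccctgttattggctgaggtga

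Mcm5 measured 29.9 CPM at P6 and 9.40 CPM at P10 in WT, and 50.6 and 26.9 CPM in KO. Both P10 libraries lay under both P6 libraries, and its log2 change of -1.22 (SE 0.19) passed with an edgeR adjusted p of 0.021. Mcm6 went from 89.6 to 47.9 CPM in WT and from 91.9 to 43.2 CPM in KO, and fell by 0.95 (SE 0.11, edgeR adjusted p = 0.0091). Cdk1, the kinase that drives entry into mitosis, measured 90.9 and 52.8 CPM in WT and 104.6 and 77.2 CPM in KO, and fell by 0.56 (SE 0.12, edgeR adjusted p = 0.043). Of its partner cyclins, Ccnb2 measured 41.7 CPM at P6 and 12.2 CPM at P10 in WT but 39.3 and 37.9 CPM in KO, with an edgeR adjusted p of 0.20 for age. Ccnb1 likewise measured 23.9 and 7.04 CPM in WT and 35.4 and 28.3 CPM in KO (edgeR adjusted p = 0.12). Whether the WT and KO differences differ from each other was not tested, since each rests on 1 library an age. Pcna, the sliding clamp of replication, did not follow the list, at 145 CPM and 167 CPM in WT.

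The share of dividing cells was compared after thinning each cell to 2000 UMIs, which left 1336 cells at P6 and 3165 at P10 and left out 44 and 375 shallower cells. UMIs of at least 3 of 12 mitotic markers were present in 6.74% of cells at P6 (5.45 to 8.22) and 2.05% at P10 (1.59 to 2.61), a ratio of 0.305. These intervals, like those of the other cell shares below, count cells within 1 library an age. Whether they overlap therefore does not measure a spread among animals. Without thinning the shares were 13.8% and 3.95%. The cut falls in a continuous range: 45 cells at P6 and 39 at P10 held 2 markers, and 30 and 19 held exactly 3. When every cell with a UMI of any mitotic marker was left out (626 of 1380 and 973 of 3540), 7 S phase genes passed the filter, of which 4 were lower with a median of -0.70. Only 2 G2 and mitosis genes then passed and none was lower, which the choice of cells fixes in part. The number of genes lower at P10 went from 516 to 401, and of higher ones from 493 to 460. In KO the mitotic share of thinned cells was 7.96% at P6 (6.21 to 10.02) and 7.21% at P10 (6.27 to 8.23).

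**Figure D2:**
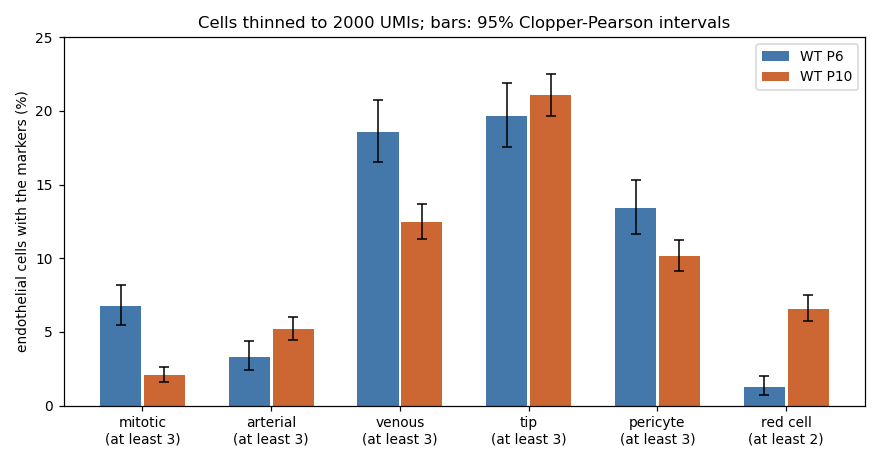
Bars give the share of endothelial cells, thinned to 2000 UMIs, with UMIs of at least 3 markers of each class (2 for red cells), for WT P6 (blue, 1336 cells) and WT P10 (orange, 3165 cells), with exact 95% intervals. The mitotic share was 6.74% and 2.05%, the venous share 18.6% and 12.4%, and the arterial share 3.29% and 5.21%.

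Genes that accompany growth were lower as well. Of 18 genes of histones, chromatin and tubulin that growing cells use, 15 passed the filter, 8 were lower and none higher, with a median of -0.60. With TMM factors 6 were lower, and without the cells holding a mitotic marker UMI 2 were, with a median of -0.27. In the age test 6 of 17 fell, such as the nucleosome-binding Hmgn2, at 426 and 178 CPM in WT and 407 and 233 CPM in KO (fell by 0.98, SE 0.14, edgeR adjusted p = 0.017). Of 29 genes of ribosome biogenesis and nucleotide synthesis, 18 passed the filter, 7 were lower and 1 higher, and in the age test 10 fell and 1 rose. Myc, which drives this program, fell from 28.9 to 17.6 CPM in WT and from 38.3 to 23.3 CPM in KO (edgeR adjusted p = 0.031), whereas Odc1, the first enzyme of polyamine synthesis, rose from 294 to 492 CPM and from 406 to 688 CPM (edgeR adjusted p = 0.016). The proteins of the ribosome itself differed little: of 36 genes, all past the filter, only Rps18 was lower (a WT log2 ratio of -0.71 and a KO ratio of -0.08), none was higher and none passed the age test. Rps18 also measured 2243 CPM at P6 and 1488 CPM at P10 in WT cells with at most 1 endothelial marker, and it has near-identical copies whose reads the counting could split, so its value is uncertain. Of 29 nuclear genes of oxidative phosphorylation, the 28 past the filter all lay within 1.5-fold, with a median of -0.22, and none passed the age test.

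Of 16 genes of an imprinted growth network, 8 passed the filter, 4 were lower, against 8.84% of all genes, and none higher. Its members act on fetal growth, some favouring and some restraining it, and many are turned down after birth. The age test called 6 of 16 as fallen and 2 as risen, Cdkn1c and Dcn. Mest (chromosome 6, 30723547 to 30748465, plus strand), expressed from the paternal copy, measured 223 and 277 CPM at P6 in WT and KO and 44.6 and 78.1 CPM at P10. Both P10 libraries lay under both P6 libraries, with a log2 ratio of -2.32 in WT (-2.43 to -2.21), and Mest fell by 2.02 (SE 0.15, edgeR adjusted p = 0.0021). Dlk1, a membrane protein of growing tissues below the filter, fell from 15.5 to 0.627 CPM in WT (edgeR adjusted p = 0.019), and Ndn, Nnat, Grb10 and Gatm fell too. Cdkn1c, a maternally expressed inhibitor of the cell cycle, went the other way, from 122 to 167 CPM in WT and from 63.3 to 157 CPM in KO, and rose (edgeR adjusted p = 0.044). H19 and Igf2 were under 20 CPM in both WT libraries.

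Junction genes of the barrier differed in few members. Of 12 tight junction genes, 10 passed the filter, with 1 higher, 1 lower and a median of 0.03. Cldn5, the main claudin of brain endothelium and one of the genes that chose the cells, measured 7613 CPM (interval 7563 to 7664) in the WT P6 library, 5524 CPM (interval 5492 to 5556) in the WT P10 library and 6103 and 5891 CPM in KO, a WT log2 ratio of -0.46. Ocln, at 104 and 108 CPM, and the scaffold Tjp1, at 117 and 119 CPM, differed by less than 1.1-fold in WT. F11r, the junctional adhesion molecule JAM-A, fell from 185 to 80.5 CPM in WT and from 204 to 100.4 CPM in KO (edgeR adjusted p = 0.006). Of 8 adherens junction genes, all past the filter, Nectin2 was lower and fell, and the others lay within 1.5-fold.

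Among transporters the difference centred on a few members. Of 15 efflux and organic anion transporters, 9 passed the filter, with Slco1a4, Abcb1a, Slc29a4 and Slco1c1 higher and the nucleoside transporter Slc29a1 lower (288 and 164 CPM). Slco1a4 (chromosome 6, 141805440 to 141856199, minus strand), which carries organic anions, bile salts and thyroid hormone across the barrier, measured 44.9 CPM (interval 41.1 to 48.9) and 466 CPM (interval 457 to 476) in the WT P6 and P10 libraries, and 66.6 and 205 CPM in KO. Both P10 libraries lay above both P6 libraries, the WT ratio was 10.4-fold, and Slco1a4 rose by 2.54 (SE 0.39, edgeR adjusted p = 0.019). After thinning, 7.26% of WT cells at P6 and 45.2% at P10 held a Slco1a4 UMI, against 2.35% of kept cells with at most 1 endothelial marker (62 at P6 and 23 at P10, thinned alike, whose median depths before thinning, over all 83 and 30 such cells, were 3493 and 2778.5 UMIs). Its relative Slco1c1, a thyroxine transporter, measured 707 and 1067 CPM in WT but 682 and 660 CPM in KO (edgeR adjusted p = 0.29). Abcb1a, the P-glycoprotein drug pump, measured 77.9 and 158 CPM in WT and 76.8 and 96.2 CPM in KO (edgeR adjusted p = 0.056), and the other main pump, Abcg2, measured 320 and 248 CPM in WT.

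Of 17 nutrient and amino acid transporters, 15 passed the filter, 3 were higher and 2 lower, against 8.44% and 8.84% of all genes, and counts this small do not set the list apart. The age test called 3 of 15 as risen, among them Slc6a6 and the choline transporter Slc44a1, and 1 as fallen, Slc1a4. Slc6a6, the taurine transporter, rose from 244 to 403 CPM in WT and from 259 to 433 CPM in KO (edgeR adjusted p = 0.016). Slc1a4, a neutral amino acid transporter, fell from 218 to 102 CPM and from 136 to 55.1 CPM (edgeR adjusted p = 0.0052). Slc16a1, which carries lactate and ketone bodies, measured 882 and 1347 CPM in WT and 627 and 654 CPM in KO (edgeR adjusted p = 0.19). The glucose transporter Slc2a1, at 705 and 944 CPM in WT, and Mfsd2a, at 592 and 767 CPM in WT and 456 and 250 CPM in KO, did not pass (edgeR adjusted p = 0.19 and 0.68). Of 16 genes of ion and metal transport, 12 passed the filter, 3 were higher and none lower, and 4 of 16 rose. These were the zinc exporter Slc30a1 (51.0 and 126 CPM in WT, 44.2 and 96.2 CPM in KO, edgeR adjusted p = 0.0038), Slc20a1, Atp1b1 and the transferrin receptor Tfrc. Of 9 genes of caveolae and the fenestral diaphragm, 8 passed, with Cavin3 and Ehd2 lower and Cav2 higher, while Plvap was under 20 CPM in both WT libraries (5.15 and 1.88 CPM).

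**Figure D3:**
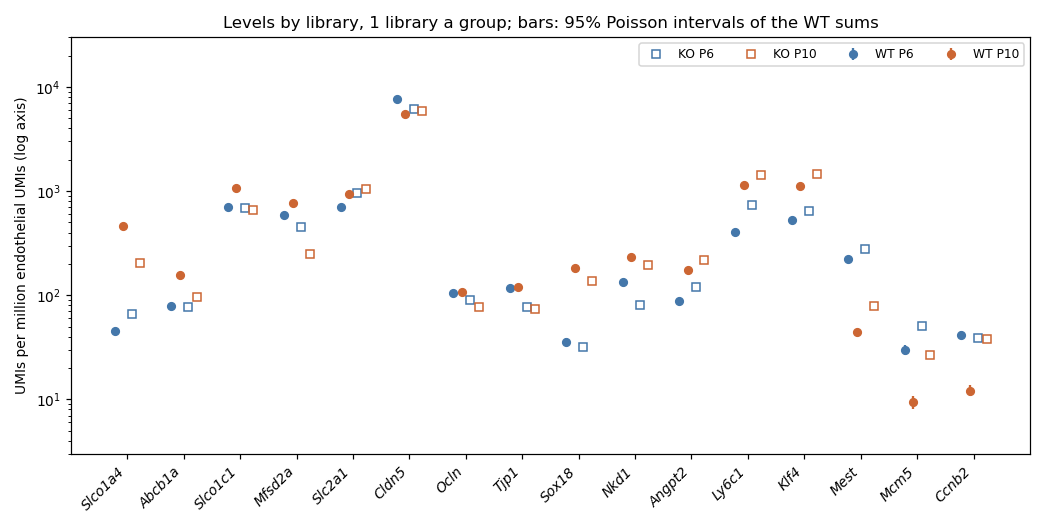
Points give CPM, on a log axis, of 16 genes in the 4 libraries of the age test, with 95% Poisson intervals on the WT sums, most of them smaller than the points. Slco1a4 went from 44.9 to 466 CPM in WT, Sox18 from 35.6 to 183 and Mest from 223 to 44.6, while Ocln and Tjp1 lay at nearly the same level at both ages.

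Genes of Wnt signalling leaned upward. Of 20 receptors and targets, 14 passed the filter, 5 were higher against 8.44% of all genes, none was lower and the median was 0.31. The age test called 4 of 19 as risen, the receptor Fzd6, Reck and the targets Nkd1 and Tnfrsf19, and none as fallen. Nkd1, a feedback inhibitor induced by the pathway, measured 135 and 231 CPM in WT and 80.8 and 195 CPM in KO, and rose by 1.07 (SE 0.14, edgeR adjusted p = 0.014). Fzd6 rose from 58.8 to 129 CPM in WT and from 49.8 to 70.8 CPM in KO (edgeR adjusted p = 0.032). The targets Axin2 (21.2 and 33.9 CPM) and Notum (51.8 and 85.4 CPM) were higher in WT and did not pass (edgeR adjusted p = 0.19 and 0.16), and Lef1, the transcription factor of the pathway, measured 109 and 92.3 CPM.

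Of 20 transcription factors of endothelium and barrier, all past the filter, 3 were higher, none was lower and 5 rose, where 8.44% of all genes were higher and 5.14% rose. Sox18, an endothelial factor of the SoxF group, measured 35.6 and 31.8 CPM at P6 in WT and KO and 183 and 138 CPM at P10. The ages did not overlap, the WT log2 ratio was 2.36 (2.22 to 2.51) and Sox18 rose by 2.29 (SE 0.12, edgeR adjusted p = 0.0011). Its SoxF relative Sox17 measured 225 and 277 CPM in WT and did not pass (edgeR adjusted p = 0.07). Epas1, the hypoxia-inducible factor of endothelium, rose from 183 to 367 CPM in WT and from 188 to 276 CPM in KO (edgeR adjusted p = 0.027). The barrier factors Foxq1 (391 and 530 CPM) and Foxf2 (178 and 151 CPM) lay within 1.5-fold in WT.

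Genes of sprouting and tip cells did not fall with the genes of division. Of 24 genes of VEGF, angiopoietin and apelin signalling, 20 passed the filter, 6 were higher and 3 lower (Aplnr, Pgf and Trp53i11), and 8 of 24 rose while none fell. Over all genes, 8.44% were higher, 8.84% were lower and 5.14% rose. Angpt2, which loosens the contact of endothelium and pericytes at sprouts, measured 87.6 and 176 CPM in WT and 121 and 220 CPM in KO, and rose by 0.98 (SE 0.11, edgeR adjusted p = 0.0081). Esm1, a marker of tip cells under the filter in WT (2.97 and 14.8 CPM), rose with an edgeR adjusted p of 0.0026, and Cxcr4, Vegfc, Tek and Plaur rose too. The VEGF receptor Kdr (334 and 447 CPM) and Apln (331 and 413 CPM) did not pass (edgeR adjusted p = 0.16 and 0.15). The share of thinned cells with at least 3 of 10 tip markers was 19.7% (17.6 to 21.9) at P6 and 21.1% (19.7 to 22.5) at P10, with overlapping intervals.

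Arterial genes were higher together. Of 20 members, 12 passed the filter, 7 were higher against 8.44% of all genes, none was lower and the median was 0.78. In the age test 10 of 19 rose, against 5.14% of all genes, while none fell. Hey1, a Notch target of arteries, rose from 131 to 206 CPM in WT and from 76.4 to 130 CPM in KO (edgeR adjusted p = 0.016). Efnb2, the arterial ephrin, rose from 18.6 to 39.6 CPM and from 19.5 to 27.8 CPM (edgeR adjusted p = 0.038), and Fbln5 and Mgp of the arterial matrix rose as well. Few cells held these 2 matrix genes. Fbln5, at 33.5 and 93.6 CPM in WT, was present in 4.94% of thinned WT cells at P6 and 5.47% at P10. Mgp, at 12.2 and 78.4 CPM, was present in 2.02% and 3.63%. Gja4, a connexin of arteries, went against the list at 191 and 143 CPM in WT (edgeR adjusted p = 0.053). At least 3 of 10 arterial markers were present in 3.29% of thinned cells at P6 (2.40 to 4.40) and 5.21% at P10 (4.46 to 6.05), with 26 and 76 cells holding exactly 3 and 98 and 295 holding 2. Without thinning the shares were 13.1% and 14.6%, whose intervals overlapped. 

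Venous genes did not show this pattern. Of 17 members, 10 passed the filter, with Slc38a5 (1229 and 819 CPM) and Aplnr (291 and 174 CPM) lower, none higher and a median of -0.06, and the age test called 2 of 17 as risen, among them the interleukin 1 receptor Il1r1. The venous factor Nr2f2 measured 32.6 and 30.8 CPM and Vwf 122 and 121 CPM. At least 3 of 10 venous markers were present in 18.6% of thinned cells at P6 (16.5 to 20.8) and 12.4% at P10 (11.3 to 13.6), with 200 and 304 cells holding exactly 3. Without thinning they were 64.9% and 41.3%. The intervals overlapped at 4 markers, with 3.59% (2.66 to 4.74) and 2.84% (2.29 to 3.48), and with 3 markers after thinning to 1000 UMIs, with 5.09% (3.99 to 6.39) and 4.02% (3.39 to 4.72). Slc38a5 gave 14082 of 20907 venous marker UMIs at P6 and 16980 of 28940 at P10. Of 13 Notch genes, 10 passed the filter, Hey1 alone was higher, none was without the mitotic cells, and Hey1 and the ligand Jag1 rose.

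Surface proteins of mature capillaries and matrix genes were higher in several members. For the lists in this paragraph, the shares over all genes were 8.44% higher, 8.84% lower and 5.14% risen. Of 16 genes of the Ly6 family and mature capillary surface, 15 passed the filter, 7 were higher and Cd200 was lower, and 6 of 15 rose. Ly6c1, a surface protein of capillary endothelium with a near-identical neighbour whose reads the counting could split, measured 405 and 1136 CPM in WT and 742 and 1428 CPM in KO, and rose by 1.26 (SE 0.17, edgeR adjusted p = 0.013). Pltp, a phospholipid transfer protein, rose from 570 to 1216 CPM in WT and from 657 to 1001 CPM in KO (edgeR adjusted p = 0.027). Of 26 basement membrane and matrix genes, 20 passed the filter, 7 were higher and the collagen chaperone Serpinh1 was lower (1508 and 810 CPM), and 7 of 25 rose. The collagen IV chain Col4a1 rose from 326 to 544 CPM in WT and from 442 to 611 CPM in KO (edgeR adjusted p = 0.035), and Nid2, Lamb2, Lama5, Hspg2, Fn1 and Fbln2 rose too. Of 18 targets of flow and of the factors Klf2 and Klf4, 16 passed, 4 were higher, none was lower and 5 rose. Klf4 rose from 533 to 1108 CPM in WT and from 649 to 1447 CPM in KO (edgeR adjusted p = 0.007).

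Of 20 genes of BMP and TGF-beta signalling, 16 passed the filter, 4 were higher (7 with TMM factors), none was lower and 5 of 18 rose. Over all genes, 8.44% were higher and 5.14% rose. The largest WT ratio was that of Ltbp4, which anchors latent TGF-beta in the matrix, at 17.3 and 143 CPM in WT and 27.9 and 121 CPM in KO (edgeR adjusted p = 0.0034). Smad6, an inhibitor of BMP signalling, rose from 21.6 to 40.9 CPM in WT and from 13.3 to 28.9 CPM in KO (edgeR adjusted p = 0.011). Id1 (1005 and 1282 CPM) and Id3 (1656 and 1707 CPM), direct targets of BMP signalling, lay within 1.5-fold in WT. The chemokine Cxcl12 rose from 144 to 483 CPM in WT (edgeR adjusted p = 0.0033), and its scavenger receptor Ackr3 rose from 5.24 to 33.1 CPM (edgeR adjusted p = 0.0028).

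Glucocorticoid and circadian targets had the highest median of the 36 lists. The lists and their members were chosen with earlier results of these data known, so this rank is a description. Of 23 members, 11 passed the filter, 9 were higher, none was lower and the median was 0.98, and 9 of 20 tested rose while none fell. Over all genes, 8.44% were higher and 5.14% rose. Klf9, a factor induced by glucocorticoid and thyroid hormone, measured 57.9 and 58.4 CPM at P6 in WT and KO and 190 and 163 CPM at P10. The ages did not overlap, and Klf9 rose by 1.65 (SE 0.12, edgeR adjusted p = 0.002). Dbp, an output factor of the circadian clock, rose from 4.71 to 23.6 CPM in WT and from 6.07 to 12.4 CPM in KO (edgeR adjusted p = 0.029), and Tsc22d3, the glucocorticoid-induced leucine zipper, rose from 182 to 359 CPM and from 172 to 252 CPM (edgeR adjusted p = 0.026). Fkbp5 was under 20 CPM in both WT libraries and Sgk1 measured 1558 and 1722 CPM. The labels give no hour of harvest.

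Of 22 immediate early genes, which cell dissociation also induces, 21 passed the filter, 8 were higher, none was lower and the median was 0.43, and 3 rose (Fosb, Nr4a1 and Hspb1). The median cell gave 1.36% of its UMIs to the list at P6 and 1.42% at P10. Without the cells highest in this share in each library (10% of them), an alternative added after seeing the data, 489 genes were higher and 515 lower, and the glucocorticoid list had a median of 0.96. The immediate early list itself then had 5 higher genes rather than 8, and a median of 0.32. The part of dissociation in these results beyond that was not tested. Of 20 genes of the unfolded protein and amino acid responses, 15 passed the filter, 9 were lower and 1 higher, and in the age test 4 of 19 fell and 2 rose. Of those that fell, Psat1, Phgdh and Shmt2 are enzymes of serine and one-carbon metabolism and Pdia4 is a folding enzyme. Those that rose, Herpud1 (147 and 204 CPM in WT) and Dnajb9 (183 and 358 CPM), are targets of the unfolded protein response. Pdia4 measured 51.4 and 15.2 CPM in WT and 63.5 and 19.5 CPM in KO, and fell by 1.68 (SE 0.12, edgeR adjusted p = 0.0019), while Hspa5, the chaperone BiP, measured 877 and 696 CPM.

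Of 20 genes of glycolysis, 13 passed the filter, 4 were lower against 8.84% of all genes and Pfkfb3 alone was higher, and 2 of 19 fell and 1 rose. With TMM factors 2 rather than 4 were lower. Eno1 fell from 560 to 269 CPM in WT and from 579 to 281 CPM in KO (edgeR adjusted p = 0.0081), whereas Ldha measured 708 and 712 CPM in WT. Pfkfb3, which makes the activator of phosphofructokinase, rose from 10.2 to 23 CPM in WT (edgeR adjusted p = 0.031). Among 26 xenobiotic and antioxidant enzymes, 19 passed the filter, 4 were higher and 2 lower, against 8.44% and 8.84% of all genes. Counts this small do not set the list apart. Gsta4, a glutathione transferase that clears lipid aldehydes, measured 121 and 458 CPM in WT and 59.6 and 361 CPM in KO, and rose by 2.30 (SE 0.18, edgeR adjusted p = 0.0026). Glutathione reductase Gsr fell from 119 to 29.5 CPM in WT and from 137 to 45.2 CPM in KO (edgeR adjusted p = 0.0024). Of 26 genes of MHC class I and the interferon response, 20 passed the filter, 3 were higher (H2-K1, H2-D1 and H2-T23) and 2 lower, among them the peptide transporter Tap1. These WT counts too are small beside the shares over all genes, 8.44% and 8.84%. The age test called 8 of 26 as fallen, among them Ifit1, an interferon-induced gene, at 2.53 and 1.78 CPM in WT and 79.1 and 24.2 CPM in KO.

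**Figure D4:**
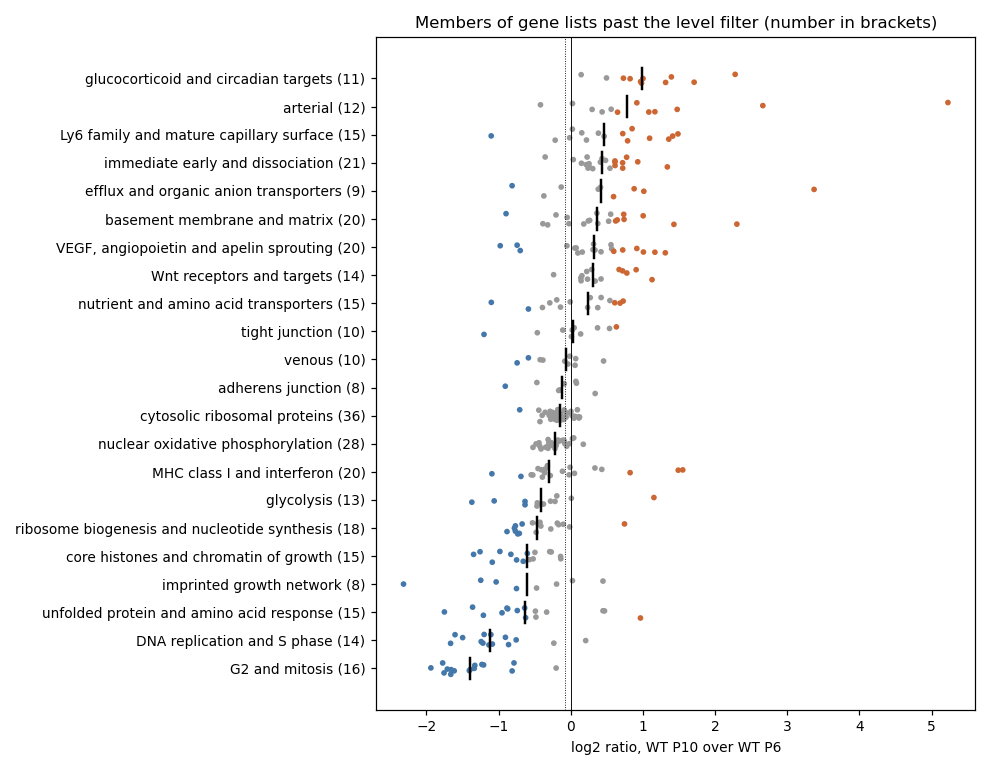
Each point is 1 gene past the level filter, placed by its log2 ratio of WT P10 over P6 and grouped by list, with the list's median as a bar and the number of genes in brackets. Orange and blue points differ at least 1.5-fold, and the dotted line is the median of all 5838 genes, -0.08. G2 and mitosis had a median of -1.40 and glucocorticoid and circadian targets one of 0.98.

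The 12 genes with the highest WT ratios were, from the top, Nxpe4, Ptgds, Eln, Cd14, Pmaip1, Alas2, Hopx, Mgll, Slco1a4, Mt2, Stra6 and Snhg12, leaving out unnamed models, haemoglobin, ribosomal protein, mitochondrial and sex-linked genes of the kinds the rule lists. Their ratios ran from 9.58-fold (Snhg12) to 92.1-fold (Nxpe4), and 9 of the 12 rose. Nxpe4 (chromosome 9, 48162023 to 48400025, plus strand) had 7 UMIs in WT at P6 and 1499 at P10, or 0.611 and 72.3 CPM, and 0.708 and 60.3 CPM in KO. Pmaip1, which encodes the cell death protein Noxa, measured 23.1 and 369 CPM in WT and 28.2 and 246 CPM in KO, and rose by 3.60 (SE 0.22, edgeR adjusted p = 0.0017). Mgll, the lipase that clears the endocannabinoid 2-arachidonoylglycerol, measured 15.4 and 164 CPM in WT and 31.2 and 197 CPM in KO, and rose by 3.07 (SE 0.20, edgeR adjusted p = 0.0017). Cd14, the co-receptor for bacterial lipopolysaccharide, rose from 1.13 to 26.2 CPM in WT and from 1.82 to 29.9 CPM in KO (edgeR adjusted p = 0.0011), and kept cells with at most 1 endothelial marker held 0 of its UMIs at P6 and 26 at P10 in WT. Stra6, a receptor that takes up retinol, rose from 14.1 to 141 CPM in WT and from 17.4 to 94.8 CPM in KO (edgeR adjusted p = 0.0021).

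The other 3 high genes did not pass or were not tested. Alas2, the haem enzyme of red cells, measured 3.84 and 60.2 CPM in WT (edgeR adjusted p = 0.10), beside the red cell markers given above, and its log2 ratio of 3.91 was 0.02 without cells holding at least 2 red cell markers, which the choice of cells fixes in part, since Alas2 is one of the 8 markers. Mt2, a metallothionein, measured 9.69 and 98.7 CPM in WT and 70.8 and 87.2 CPM in KO (edgeR adjusted p = 0.15). Ptgds, a prostaglandin synthase of meninges and choroid plexus, was detected in 0.225% of thinned cells at P6 and 0.158% at P10, and its log2 ratio of 6.18 was 1.05 without cells holding at least 3 pericyte markers. Eln, elastin, was also held by few cells, 0.524% and 1.99%, at 3.49 and 137 CPM in WT and 41.6 and 191 CPM in KO (edgeR adjusted p = 0.029), and its log2 ratio was 5.09 without those pericyte-marker cells. Leaving out red-cell-marker or pericyte-marker cells was an unplanned alternative, here and below.

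The 12 genes with the lowest WT ratios were Mmp9, Cap1, Zfp69, Pfn1, Ccl21a, Stard5, Mest, Cdca8, Tk1, Gsr, Pclaf and Rnf121, and 8 of these fell. Mmp9, a protease that degrades collagen IV, measured 22.9 and 1.45 CPM in WT and 21.9 and 0.469 CPM in KO, and fell by 4.55 (SE 0.34, edgeR adjusted p = 0.0024). Its WT log2 ratio of -3.90 was -2.20 without the pericyte-marker cells. Cdca8, Tk1 and Pclaf, genes of mitosis and DNA synthesis, were 4.10-fold, 4.08-fold and 4.02-fold lower in WT and did not pass (edgeR adjusted p = 0.12, 0.058 and 0.052). Ccl21a, here the copy with identifier ENSMUSG00000094686, has near-identical copies whose reads the counting could split, so its values are uncertain.

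Cap1 and Pfn1 encode actin-binding proteins that most cell types express. Cap1 (chromosome 4, 122859047 to 122886056, minus strand) measured 235 and 264 CPM at P6 in WT and KO and 19.7 and 22.7 CPM at P10, and fell by 3.51 (SE 0.11, edgeR adjusted p = 0.00026). Kept cells with at most 1 endothelial marker held 42 Cap1 UMIs of 308582 at P6 in WT and 0 of 102142 at P10, which allows up to 29.4 CPM, so the difference was present outside endothelium too. Pfn1 (chromosome 11, 70651850 to 70654644, minus strand) measured 1467 and 1569 CPM at P6 and 174 and 469 CPM at P10 (edgeR adjusted p = 0.013). The labels give no batch, so harvest age and any handling shared by the libraries of 1 age cannot be told apart for these or other genes.

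The KO pair gave the same contrast of ages in other libraries, from mice that carry the floxed Pdcd10 alleles. Across 5539 genes past the filter in both pairs, the log2 ratios had a Pearson correlation of 0.784, a description across genes, which are not independent, in libraries that may share handling at each age. Of 418 genes higher at P10 in WT and past the filter in KO, 241 (57.7%) were at least 1.5-fold higher in KO, against 6.41% of all genes past the KO filter, and 5 were lower by that fold. Of 486 genes lower in WT, 141 (29.0%) were also lower in KO, against 6.35%, and 3 were higher. The mitotic share of thinned cells was 7.96% at P6 and 7.21% at P10 in KO, where it was 6.74% and 2.05% in WT.

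**Figure D5:**
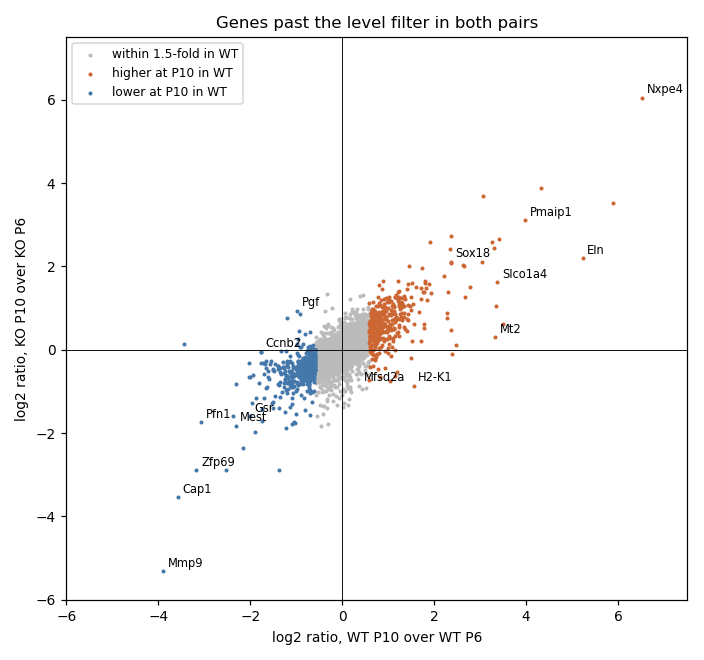
Each point is 1 of 5539 genes past the level filter in both pairs, with the log2 ratio of P10 over P6 in WT on the horizontal and in KO on the vertical axis, coloured by the WT call. Nxpe4 (6.53 and 6.05) and Cap1 lie near the diagonal, whereas Ccnb2 lies near 0 in KO and H2-K1 and Pgf have opposite signs.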

How the data were processed

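Cells were sorted by flow cytometry and captured with the 10x Genomics 3' chemistry that the labels' protocols name. The deposited UMI counts per gene and barcode, whole numbers for 32285 genes, were made by the authors with Cell Ranger 6.0.1 against mm10, per the submitters' processing notes. Library totals were 12080868 (WT P6), 10807651 (KO P6), 21271326 (WT P10) and 24216567 (KO P10) UMIs, so 20 CPM rested on well over 30 UMIs. The P9 libraries were not used in comparisons. Counts were summed over endothelial cells and log2 ratios used a prior count of 2. edgeR 4.0.16 (R 4.3.3) used TMM, filterByExpr and Benjamini-Hochberg adjustment (common dispersion 0.0162). A run on simulated counts held no genotype effect and no difference between WT and KO changes, so it cannot vouch for the fit here. Thinning and intervals used numpy 2.4.6 and scipy 1.17.1. Scrublet in scanpy 1.11.5 marked 0 to 3 cells a library and did not work as a caller, so no doublets were removed in the values given. Coordinates come from GENCODE vM21 (GRCm38), which matched 32235 identifiers.

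Named genes are the 12 highest and 12 lowest WT ratios past the filter (219 genes of barred kinds and 13 with under a 0.1 share of their level in non-endothelial cells were left out), plus members of 36 gene lists and 18 marker lists. Members and lists were chosen with earlier results of these data known. The labels number no replicates. Some genes of the lists are counted but not reported here by name. Alternatives covered prior count, filters, scaling, the marker gate, other-lineage, mitotic, doublet and red-cell cells, DESeq2 1.42.0 and left-out libraries.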

Additional observations from a re-analysis of the deposited data

Results flagged for a closer look

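In 3 genes among those considered, the WT and KO pairs differed by at least 1.5-fold in KO with the opposite sign to WT. Each pair has 1 library an age, so the difference between pairs was not tested. Pgf, placental growth factor, had a log2 ratio of -0.977 in WT (24.9 and 12.6 CPM) and of 0.93 in KO (19.9 and 38.3 CPM). H2-K1, a heavy chain of MHC class I, had a log2 ratio of 1.55 in WT (93.7 and 275 CPM) and of -0.86 in KO (390 and 214 CPM). H2-D1, another heavy chain, had 0.823 in WT (453 and 802 CPM) and -0.65 in KO (1236 and 789 CPM). The MHC heavy chains are near-identical genes whose reads the counting could split, so these values are uncertain.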

How the results depend on the processing

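The count of WT genes past 1.5-fold, 1009 in all, was 4346 (2095 higher, 2251 lower) with a filter of only 5 UMIs, 484 (257 and 227) with 50 CPM and 321 (186 and 135) at 2-fold. The other WT alternatives, prior count, scaling, gate, doublets, thinning and left-out cell classes, kept the total within 1.5 times. The age test called 1542 risen and 1096 fallen genes with no filter, 377 and 249 with DESeq2, 306 and 154 without cells holding 2 markers of another lineage (810 of 1380 and 1746 of 3540 WT cells), 337 and 182 without mitotic cells, and 2 and 1 without the genotype term. Leaving out 1 library, without the genotype term, gave 0 to 97 risen and 0 to 41 fallen genes. The lone library of an age is then assumed to vary like the others. The mitotic share ratio ranged from 0.281 to 0.412. Of single-gene values in the WT pair, Alas2 turned to -0.52 without other-lineage cells and Prc1 to 0.19 without mitotic cells. For age, Hmcn1 turned to -0.20 without WT at P10 (-0.20 to 1.76 over left-out libraries). The cause was not tested. The log2 ratios of other named genes and list members moved beyond their counting interval in 417 of 3136 cases, pooled over all settings. The settings were unlike: of 196 values each, 96 moved without mitotic cells, 83 without other-lineage cells and 71 with each cell thinned. With another prior count, another filter or high doublet scores left out, none moved. No paired analysis was possible because each group has 1 library. Depth limits genes under 20 CPM.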

Other observations

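Genes described here were singled out after their values were seen. Of the genes of retinoid handling other than Stra6, the retinol dehydrogenase Rdh10 measured 22.4 and 40.0 CPM in WT, while Cyp26b1, Crabp2 and Rarg were under 20 CPM in both WT libraries.

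Of 9 cytokine and related genes, 8 passed the filter and all 8 were higher at P10 in WT, where 8.44% of all genes were, which the choice of these genes by their values fixes. The chemokine Cxcl2 measured 139 and 465 CPM in WT and 137 and 534 CPM in KO, Csf3 4.19 and 29.1 CPM in WT, Il11 2.88 and 21.99 CPM, and the factor Cebpb 10.3 and 65.4 CPM. Of 9 elastic fibre genes, 7 passed, 6 were higher and 1 was lower. Mfap2, a microfibril protein, measured 20.7 and 107 CPM in WT and 22.7 and 31.8 CPM in KO.

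Of 4 unnamed gene models, Gm10260 and Gm8797 stood apart in 1 library, and Gm11808 and Gm26862 differed by age in both genotypes. Gm10260 measured 4.45 CPM in WT at P6, 251 CPM in WT at P10, 3.84 CPM in KO at P6 and 5.51 CPM in KO at P10. Gm8797 measured 245, 22.4, 307 and 338 CPM in the same order. In kept cells with at most 1 endothelial marker, Gm10260 had 1 UMI of 308582 in WT at P6 and 28 of 102142 at P10, and Gm8797 had 63 and 1. Gm11808 measured 428 and 114 CPM in WT and 492 and 125 CPM in KO and fell (edgeR adjusted p = 0.0017), and Gm26862 measured 121 and 20.9 CPM in WT and 61.0 and 8.24 CPM in KO. Zfp69, with 44.5 and 4.87 CPM in WT, lies on chromosome 4 (120930137 to 120951699), as does Cap1.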
